A study of Mus musculus with 23 samples.

Results

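The genes described are 9 markers by which subtypes of inhibitory interneurons are told apart: Pvalb, Calb1, Calb2, Sst, Vip, Cck, Lhx6, Reln and Nos1. Their probes were found by gene name among the non-control probes of the array, which gave 13 probes of 39429 (9 of the 31829 names the array gives its probes). The study asked whether a low-protein diet given to the mother during gestation, with or without extra folic acid, alters the brain of the offspring. C57BL/6J embryos made by in vitro fertilization were carried by ICR recipient mothers on a control diet (CD, close to AIN93G, 20% casein and 0.02% folic acid), a protein-restricted diet (PR, 5% casein and 0.02% folic acid) or the protein-restricted diet with supplemental folic acid (FA, 5% casein and 0.1% folic acid). The mothers ate these diets from 1 month before transfer, the pups were delivered by caesarean section and nursed by ICR foster mothers, and all offspring ate the control diet after weaning. The study's methods give these foster mothers only the control diet, whereas its results name CD, PR or FA as what they had eaten. RNA came from the whole brains of adult male offspring aged 19 weeks that had gone through behavioral tests, with cerebrum and cerebellum together, and each group had 4 mice, each on its own 1-colour array.

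Interneurons are the locally projecting neurons that release GABA, the main inhibitory transmitter of the forebrain, and they set the timing and the gain of the excitatory cells around them. Parvalbumin marks fast-spiking basket and chandelier cells that contact the cell body and the axon start of their targets, somatostatin marks cells that contact distal dendrites, and VIP marks cells that mainly inhibit other interneurons. None of the 9 transcripts is limited to cortical interneurons in a whole brain. Purkinje cells of the cerebellum also make parvalbumin and calbindin, cerebellar granule cells make calretinin, reelin and neuronal nitric oxide synthase, pyramidal cells make cholecystokinin, striatal projection neurons make calbindin, and somatostatin and VIP are also made in the hypothalamus. A lower value can therefore come from fewer cells of a type or from less RNA per cell, in any of these regions, and the arrays cannot tell these apart.

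Values are log2 of the normalized spot intensity, so that a difference of 1 is a doubling. The scanner software marks spots that stand well above background, and a probe counts as such if 50% or more of its spots on the array have the mark. A probe was called lower or higher when its limma p, adjusted over all 39429 probes of a comparison by the Benjamini-Hochberg method, was under 0.05. Of the 13 probes, 12 were well above background on all 12 arrays, as were 23753 of the 39429. The exception was probe 3 of Lhx6, which was well above background on 2 of 12 arrays. The probe with the highest mean stands for a gene and is named probe 1 where there are several, and levels of different probes are not compared as amounts of RNA, since probes differ in how brightly they bind.

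Each array carried 43020 spots, none of them saturated. Spots well above background numbered 27068 to 28458 on the CD arrays, 31266 to 33478 on the PR arrays and 30408 to 31672 on the FA arrays. All arrays of one diet were on the same slide and were scanned together, and for this reason diet, slide and scan cannot be told apart in any comparison. PR minus CD and FA minus CD were both taken against the same 4 CD arrays, so the 2 comparisons are not independent of each other.

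Between PR and CD, 3 of the 13 marker probes were lower (probe 1 of Lhx6, probe 1 of Calb1 and probe 2 of Pvalb) and 2 were higher (Calb2 and Sst). Over all probes tested, 16.6% were called lower and 13.4% higher, and among the 23753 probes well above background on all arrays 14.3% were lower and 16.5% higher. For 6 of the 13 probes every value of one group lay beyond every value of the other, against 33.2% of all probes. Counted by the brightest probe, 2 of 9 genes were lower, Lhx6 and Calb1, and 2 higher. The other probes of Lhx6 and Calb1 were not called, and probe 2 of Lhx6 had the opposite sign. The median log2 difference of the 13 probes was -0.03, against -0.02 for all probes. The median size was 0.12, against 0.20 for all probes and 0.15 among those well above background on all arrays.

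Between FA and CD, 4 marker probes were lower (probe 1 of Lhx6, Reln, probe 1 of Calb1 and probe 2 of Pvalb) and 0 were higher by limma. At an unadjusted limma p under 0.05, 4 marker probes were lower and 2 higher, namely Vip and Sst. That limit was passed by 17502 of all 39429 probes in this comparison. The Tukey test named in the study's methods also called 0 marker probes higher. By the adjusted limma p, the background was 18% lower and 16.4% higher over all probes, and 17.1% lower and 19.9% higher among the bright ones. There were 5 of 13 probes without overlap, against 36.9% of all probes. The brightest probes put 3 of 9 genes lower, namely Lhx6, Calb1 and Reln. The other probes of Lhx6 and Calb1 were again not called, and probe 2 of Lhx6 had the opposite sign. The median difference of the 13 probes was -0.15, against -0.01 for all probes. The median size was 0.18, against 0.22 for all probes and 0.17 among the bright ones.

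Between FA and PR, where the diets differed only in folic acid, limma called 0 marker probes lower and 0 higher, and the Tukey test also called 0. The unadjusted limma p was under 0.05 for 2 marker probes, with Vip higher and Reln lower. Over the whole array it was under 0.05 for 5572 of 39429 probes. Few probes of any kind were called in this comparison, 0.386% lower and 0.228% higher over all probes and 0.552% lower and 0.223% higher among the bright ones, and 0 of the 13 probes were free of overlap against 11.1% of all probes. The methods of the study set a stricter limit, a change of 2-fold or more with an adjusted p below 0.0001 by the Tukey test. Applied here to the limma p, it was passed by 0 of the 13 marker probes in any comparison. Over the whole array, by the limma p, 34 probes (0.0862%) passed it for PR minus CD, 77 (0.195%) for FA minus CD and 0 (0%) for FA minus PR. With 13 probes a single call moves the share by several percent, and no test of these counts against the whole array was made.

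**Figure D1:**
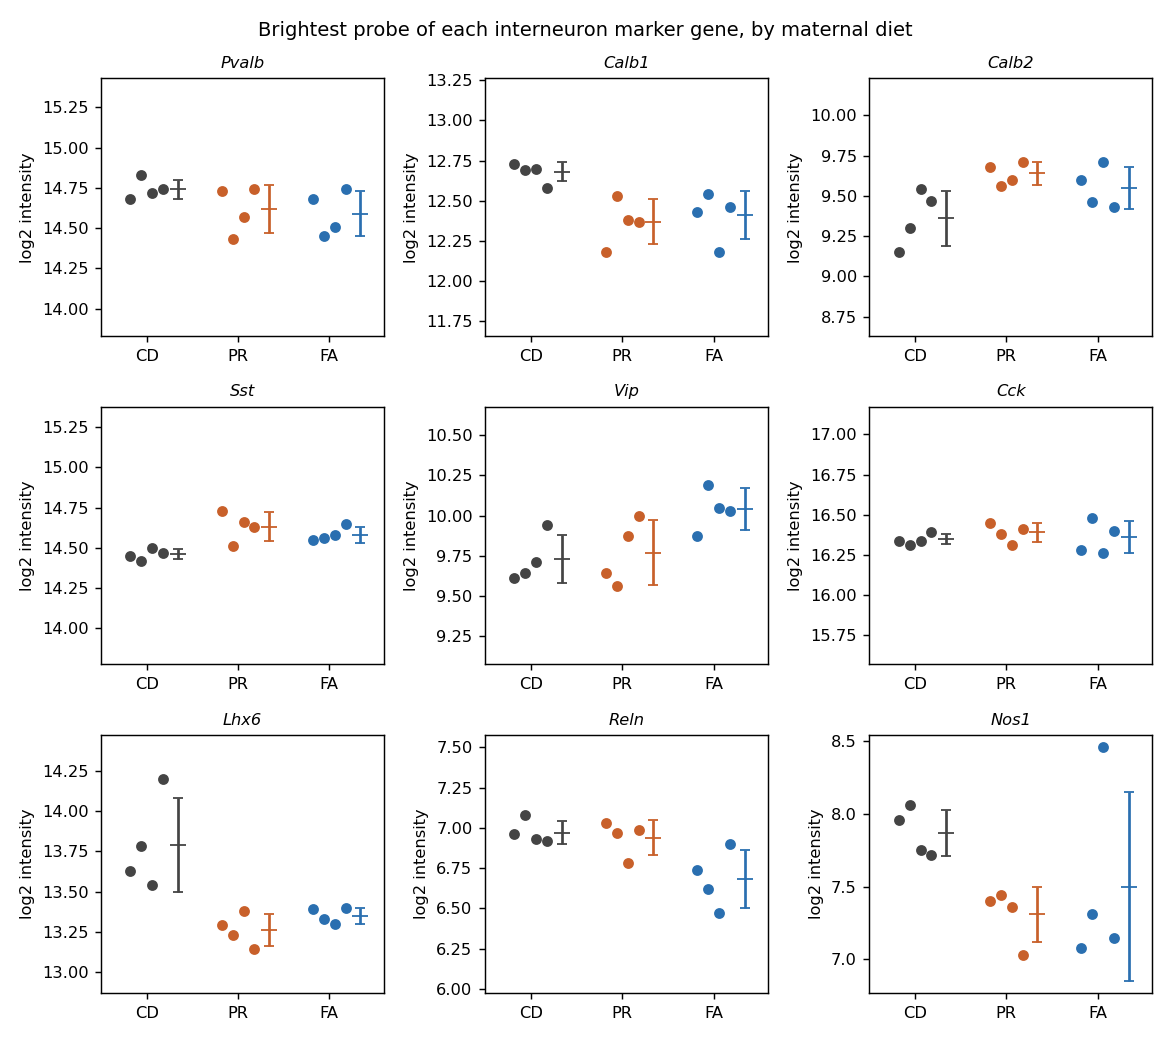
Log2 intensity (vertical axis, a separate scale in each panel) of the brightest probe of each marker gene on the 4 arrays of each maternal diet; points are single arrays and bars the mean and SD. The PR and FA arrays lie below all CD arrays for Calb1 and Lhx6, the FA arrays lie below the CD arrays for Reln, and a single FA array stands at 8.46 for Nos1.

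Pvalb encodes parvalbumin, a fast calcium buffer of fast-spiking interneurons and Purkinje cells. Probe 1 (chr15:78021951-78022010 of build mm9, minus strand) read 14.68, 14.83, 14.72 and 14.74 in the CD group, 14.73, 14.43, 14.57 and 14.74 in the PR group, and 14.68, 14.45, 14.51 and 14.74 in the FA group. The groups overlapped, since each of the PR and FA groups held arrays at the CD level beside lower ones. The difference was -0.12 (95% interval -0.31 to 0.06, adjusted p = 0.302) for PR minus CD and -0.15 (-0.34 to 0.04, adjusted p = 0.2) for FA minus CD, with 4 arrays a group.

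Probe 2 of Pvalb lies further toward the 3′ end of the same transcript (chr15:78021549-78021608, minus strand). It read 13.25, 13.19, 13.23 and 13.14 in CD, 12.98, 13.00, 13.06 and 13.09 in PR, and 13.09, 13.01, 13.00 and 13.09 in FA. All 8 PR and FA arrays lay below the lowest CD array. It fell by 0.17 in PR (interval -0.26 to -0.07, adjusted p = 0.0136, a change of -11.1%) and by 0.15 in FA (interval -0.25 to -0.06, adjusted p = 0.0188, a change of -10%). The 2 probes thus had the same direction and a similar size, and only probe 2, with a spread of 0.05 in each group, passed the threshold. Across the 12 arrays their deviations from the group means correlated with r = 0.37. The FA call of probe 2 was lost without CD replicate 1 (-0.14, adjusted p = 0.0504) or without FA replicate 3 (-0.14, adjusted p = 0.0528), and with the signal scaled to each array's 75th percentile probe 1 was called as well, at -0.27 (adjusted p = 0.0224) for PR and -0.28 (adjusted p = 0.0183) for FA.

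Calb1 encodes calbindin, another calcium buffer, which is found in dendrite-targeting interneurons, Purkinje cells and striatal projection neurons. Probe 1 (chr4:15835078-15835137, plus strand) read 12.73, 12.69, 12.70 and 12.58 in CD, 12.18, 12.53, 12.38 and 12.37 in PR, and 12.43, 12.54, 12.18 and 12.46 in FA. Every PR and FA array was below every CD array, and PR replicate 1 and FA replicate 3 were the lowest. The probe fell by 0.31 in PR (interval -0.51 to -0.12, adjusted p = 0.0226, a change of -19.5%) and by 0.27 in FA (interval -0.47 to -0.08, adjusted p = 0.0358, a change of -17.2%).

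These Calb1 calls rest on narrow margins. For PR minus CD the call was lost without CD replicate 1 (-0.29, adjusted p = 0.0558), CD replicate 3 (-0.30, adjusted p = 0.0518) or PR replicate 1 (-0.25, adjusted p = 0.0564), by the Tukey test (adjusted p = 0.071) and for the mean of both probes (-0.19, adjusted p = 0.0927). For FA minus CD it was lost in 6 of the 8 fits that left out an array, namely CD replicate 1 (-0.25, adjusted p = 0.0815), CD replicate 2 (-0.27, adjusted p = 0.071), CD replicate 3 (-0.26, adjusted p = 0.0753), FA replicate 1 (-0.28, adjusted p = 0.0619), FA replicate 3 (-0.20, adjusted p = 0.0842) and FA replicate 4 (-0.29, adjusted p = 0.0523). It was also lost by the Tukey test (adjusted p = 0.105).

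Probe 2 of Calb1 (chr4:15833582-15833641) read 9.66, 9.63, 9.79 and 9.83 in CD, 9.49, 9.76, 9.70 and 9.70 in PR, and 9.57, 9.62, 9.40 and 9.65 in FA. PR replicate 1 and FA replicate 3 were again the lowest of their groups, and the deviations of both probes correlated with r = 0.68 over the 12 arrays, yet the groups overlapped. The difference was -0.06 for PR minus CD (adjusted p = 0.579, limma) and -0.17 for FA minus CD (adjusted p = 0.126), neither of them called.

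Calb2 encodes calretinin, a calcium-binding protein of many VIP interneurons, of cerebellar granule cells and of olfactory bulb neurons. Its probe (chr8:112678555-112678614, minus strand) read 9.15, 9.30, 9.54 and 9.47 in CD, 9.68, 9.56, 9.60 and 9.71 in PR, and 9.60, 9.46, 9.71 and 9.43 in FA. All 4 PR arrays were above all CD arrays, while the FA arrays overlapped with them. The probe rose by 0.27 in PR (interval 0.07 to 0.48, adjusted p = 0.0459, a change of 20.8%), opposite to Calb1. The FA minus CD difference was 0.18 (interval -0.02 to 0.39, adjusted p = 0.152), and FA minus PR was -0.09 (adjusted p = 0.725).

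The Calb2 call was lost when CD replicate 1 (0.20, adjusted p = 0.109), CD replicate 2 (0.25, adjusted p = 0.102), PR replicate 1 (0.26, adjusted p = 0.0977), PR replicate 2 (0.30, adjusted p = 0.0541), PR replicate 3 (0.29, adjusted p = 0.0716) or PR replicate 4 (0.25, adjusted p = 0.109) was left out. It was also lost with only the 2 groups fitted (adjusted p = 0.0642) and by the Tukey test (adjusted p = 0.133), at the same direction throughout.

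Sst encodes somatostatin, a peptide that inhibits hormone release from the pituitary and dampens dendritic excitation in the cortex. Its probe (chr16:23889776-23889835, minus strand) stood on 10 spots of each array, and the SD over these spots was 0.0235 to 0.0568. The arrays read 14.45, 14.42, 14.50 and 14.47 in CD, 14.73, 14.51, 14.66 and 14.63 in PR, and 14.55, 14.56, 14.58 and 14.65 in FA. All PR and all FA arrays were above the highest CD array, PR replicate 2 by the least. The probe rose by 0.17 in PR (interval 0.06 to 0.29, adjusted p = 0.0281, a change of 12.7%). For FA the difference was 0.12 (interval 0.01 to 0.24, adjusted p = 0.0847), not past the threshold although the 4 arrays of each group did not overlap.

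The size of the Sst difference depended on the scaling. With the signal scaled to each array's 75th percentile it was 0.03 for PR minus CD (adjusted p = 0.666) and 0.00 for FA minus CD (adjusted p = 0.968). The PR call was also lost without CD replicate 1 (0.17, adjusted p = 0.0599), CD replicate 2 (0.16, adjusted p = 0.068), PR replicate 1 (0.14, adjusted p = 0.0695), PR replicate 3 (0.16, adjusted p = 0.0674) or PR replicate 4 (0.17, adjusted p = 0.0574), with only the 2 groups fitted (adjusted p = 0.0602) and by the Tukey test (adjusted p = 0.0504).

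Vip encodes vasoactive intestinal peptide, which marks interneurons that inhibit other interneurons and also acts in the circadian pacemaker of the hypothalamus. Its probe lies at chr10:4699238-4699297 by the array's annotation, which puts it on the minus strand of mm9, whereas RefSeq puts the gene on the plus strand of GRCm38.p6, and this was not resolved here. It read 9.61, 9.64, 9.71 and 9.94 in CD, 9.64, 9.56, 9.87 and 10.00 in PR, and 9.87, 10.19, 10.05 and 10.03 in FA. The CD and PR values overlapped, and 3 of 4 FA arrays lay above every array of both groups. The difference was 0.04 for PR minus CD (interval -0.21 to 0.29, adjusted p = 0.822), 0.31 for FA minus CD (interval 0.06 to 0.56, adjusted p = 0.0562) and 0.27 for FA minus PR (interval 0.02 to 0.52, adjusted p = 0.314), none of them called.

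The FA minus CD difference of Vip was close to the threshold and passed it in 7 of 19 alternatives, of which 6 are given here. It was called with normexp background correction (0.27, adjusted p = 0.0468), after dim probes were removed (0.31, adjusted p = 0.0462), with a trend and robust variance model (0.31, adjusted p = 0.0451), with only the 2 groups fitted (0.31, adjusted p = 0.0453), without CD replicate 4 (0.38, adjusted p = 0.0258) and without FA replicate 1 (0.36, adjusted p = 0.0444). The PR minus CD difference of Vip turned to -0.04 (adjusted p = 0.823) without PR replicate 4.

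Cck encodes cholecystokinin, a peptide of basket cells that carry cannabinoid receptors and of many pyramidal neurons. Its probe (chr9:121398943-121399002, minus strand) read 16.34, 16.31, 16.34 and 16.39 in CD, 16.45, 16.38, 16.31 and 16.41 in PR, and 16.28, 16.48, 16.26 and 16.40 in FA. The groups overlapped widely, with the widest spread in FA. The difference was 0.04 for PR minus CD (interval -0.08 to 0.16, adjusted p = 0.619) and 0.01 for FA minus CD (interval -0.11 to 0.13, adjusted p = 0.914), and it turned to -0.16 and -0.15 under 75th percentile scaling, where it was not called either (adjusted p = 0.0665 and 0.0787).

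**Figure D2:**
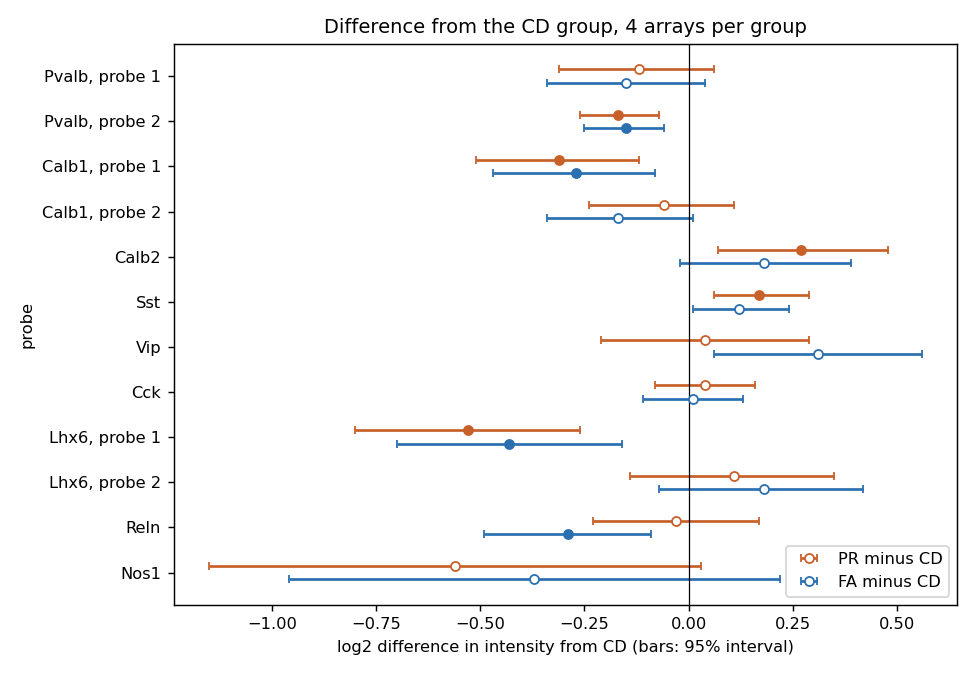
Difference in log2 intensity from the CD group (horizontal axis) for 12 marker probes, with 95% intervals from limma and 4 arrays per group; filled points had a limma adjusted p under 0.05, and probe 3 of Lhx6, dim on most arrays, is not drawn. Probe 1 of Lhx6 differed by -0.53 in PR and -0.43 in FA while probe 2 of the same gene differed by 0.11 and 0.18, and the widest intervals belong to Nos1.

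Lhx6 encodes a LIM homeodomain transcription factor that specifies the interneurons born in the medial ganglionic eminence, most of which later carry parvalbumin or somatostatin. Probe 1 (chr2:35937644-35937703, minus strand) read 13.63, 13.78, 13.54 and 14.20 in CD, 13.29, 13.23, 13.38 and 13.14 in PR, and 13.39, 13.33, 13.30 and 13.40 in FA. Every PR and FA array lay below every CD array, and CD replicate 4 was far above the others. The probe fell by 0.53 in PR (interval -0.80 to -0.26, adjusted p = 0.00872, a change of -30.6%) and by 0.43 in FA (interval -0.70 to -0.16, adjusted p = 0.0188, a change of -26%). Without CD replicate 4 the differences were -0.39 (adjusted p = 0.00341) and -0.30 (adjusted p = 0.0104), still called. By the Tukey test the FA call was lost (-0.43, adjusted p = 0.0669).

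The other Lhx6 probes did not share this difference. Probe 2 (chr2:35937470-35937529) starts at base 3425 of the transcript, where probe 1 starts at base 3251, and read 7.79, 7.95, 7.97 and 8.12 in CD, 8.02, 8.07, 8.04 and 8.14 in PR, and 8.04, 8.10, 7.94 and 8.49 in FA. The groups overlapped, and the difference was 0.11 for PR minus CD (interval -0.14 to 0.35, adjusted p = 0.493) and 0.18 for FA minus CD (interval -0.07 to 0.42, adjusted p = 0.24), the opposite sign to probe 1. The mean of both probes differed by -0.21 for PR (adjusted p = 0.134) and -0.13 for FA (adjusted p = 0.347), neither called. Probe 3 (chr2:35958379-35958438) was well above background on CD replicate 1, at 6.35, and on 1 PR array, and its other values ran from 2.17 to 4.01. No direction can be given for Lhx6 itself from probes that disagree in this way.

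The sequences of the 3 probes also differ. Of the 60 bases of probe 1, 29 are an unbroken run of alternating C and A at the 3′ end of the printed strand, whereas the longest CA or GT run in the other 12 marker probes is 5 bases. The last 30 bases of the Lhx6 probes are shown to let the run be seen, with the run in capitals.
Lhx6 probe 1: aACACACACACACACACACACACACACACA
Lhx6 probe 2: gagtagaagtgccggcacttaaacccagaa
Lhx6 probe 3: aggagatctactgcaagatggactacttca

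The repeat was noticed after the values had been seen, when the genes whose array-to-array deviations were most like those of Lhx6 probe 1 were listed. Both of these genes, LOC100045313 and the transcript ENSMUST00000069941, correlated with it at r = 0.99 over the 12 arrays, and both are measured by probes on chromosome 11 that hold a CA run, of 22 and 31 bases (chr11:83633718-83633777 and chr11:58739630-58739689). LOC100045313 differed by -0.12 for PR minus CD and -0.22 for FA minus CD, and ENSMUST00000069941 by -0.56 and -0.47. Their last 30 bases are given in the same way.
LOC100045313: gactcattCACACACACACACACACACACA
ENSMUST00000069941: CACACACACACACACACACACACACACACA

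All other probes with a CA run of at least 20 bases were then collected, whatever their gene, which gave 23. For PR minus CD, 16 of them were called lower and 0 higher by limma, all 23 were below 0, and the median difference was -0.50 (range -0.68 to -0.01). For FA minus CD, 15 were called lower and 0 higher, 22 were below 0, and the median was -0.44 (range -0.71 to 0.08). Probe 1 of Lhx6, at -0.53 and -0.43, lay near these medians. The r of the 23 probes with Lhx6 probe 1 had a median of 0.88 and ran from 0.18 to 0.99. The 23 include the pair of probes that prompted the search, so the top of that range restates how they were found.

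The same shape was seen array by array. The median deviation of the 23 CA probes from their mean over 12 arrays was 0.15, 0.31, 0.15 and 0.66 on the CD arrays, -0.11, -0.19, -0.07 and -0.28 on the PR arrays, and -0.09, -0.11, -0.18 and -0.12 on the FA arrays. For Lhx6 probe 1 the deviations were 0.17, 0.31, 0.08 and 0.73 in CD, -0.17, -0.24, -0.09 and -0.32 in PR, and -0.08, -0.14, -0.17 and -0.07 in FA. Both were highest on CD replicate 4 and lowest on PR replicate 4. The 52 probes with a run of alternating G and T of at least 20 bases tended the opposite way. Their r with Lhx6 probe 1 was negative throughout (median -0.67, range -0.76 to -0.27). Of these probes, 0 were called lower and 1 higher for PR minus CD, and 0 and 0 for FA minus CD. The median differences were 0.12 and 0.07, with 8 and 13 of the 52 below 0. The part of the repeat in the Lhx6 result was not tested. With all probes that hold such a run left out, 2 marker probes were called lower for PR minus CD and 3 for FA minus CD, and the choice to leave them out was made after seeing the data.

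**Figure D3:**
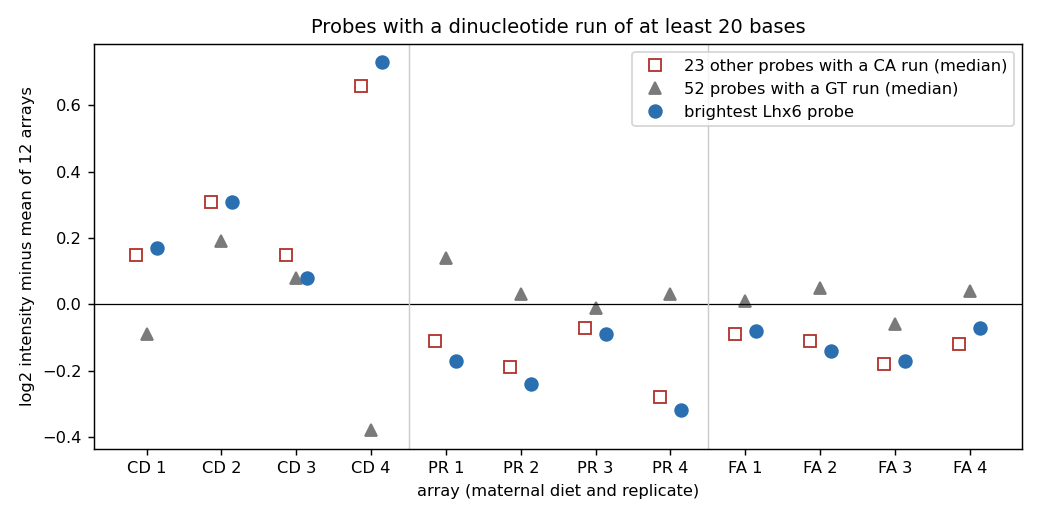
Log2 intensity minus the mean over 12 arrays (vertical axis) on each array (horizontal axis) for probe 1 of Lhx6 and for the median of the other probes that hold a run of alternating C and A, or of G and T, of at least 20 bases. Lhx6 and the 23 CA probes lie close together on every array, with 0.73 and 0.66 on CD replicate 4, where the 52 GT probes are at -0.38.

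Reln encodes reelin, a large glycoprotein that guides neuronal layering in the embryo and is secreted in the adult by layer 1 and other interneurons and by cerebellar granule cells. Its probe (chr5:21404915-21404974, minus strand) read 6.96, 7.08, 6.93 and 6.92 in CD, 7.03, 6.97, 6.78 and 6.99 in PR, and 6.74, 6.62, 6.47 and 6.90 in FA. CD and PR overlapped, and all FA arrays were below all CD arrays, FA replicate 4 by the least. The probe fell by 0.29 in FA (interval -0.49 to -0.09, adjusted p = 0.0292, a change of -18.3%), and PR minus CD was -0.03 (interval -0.23 to 0.17, adjusted p = 0.814). The direct comparison FA minus PR gave -0.26 (interval -0.46 to -0.06, unadjusted p = 0.0159, adjusted p = 0.228 by limma), which was not called, so a difference between the FA and PR groups was not shown.

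The FA call of Reln was lost without CD replicate 1 (-0.29, adjusted p = 0.0551), CD replicate 2 (-0.26, adjusted p = 0.0761), FA replicate 2 (-0.27, adjusted p = 0.0679) or FA replicate 3 (-0.22, adjusted p = 0.0729), with only the 2 groups fitted (adjusted p = 0.0506) and by the Tukey test (adjusted p = 0.0885). Over the 19 alternatives the difference ran from -0.36 to -0.18. The PR minus CD difference, close to 0, turned to 0.02 under 75th percentile scaling.

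Nos1 encodes the neuronal nitric oxide synthase, which makes the diffusible messenger nitric oxide in scattered interneurons, many of them with long axons, and in cerebellar granule and molecular layer cells. Its probe (chr5:118402831-118402890, plus strand) read 7.96, 8.06, 7.75 and 7.72 in CD, 7.40, 7.44, 7.36 and 7.03 in PR, and 7.08, 7.31, 8.46 and 7.15 in FA. All PR arrays and 3 of 4 FA arrays were below all CD arrays, and FA replicate 3 was above them all. The difference was -0.56 for PR minus CD (interval -1.15 to 0.03, adjusted p = 0.137) and -0.37 for FA minus CD (interval -0.96 to 0.22, adjusted p = 0.313), neither called.

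FA replicate 3 decides what can be said of Nos1. The FA group had an SD of 0.65 against 0.16 in CD and 0.19 in PR, and since limma estimates a shared spread from all groups, that array also widens the interval of PR minus CD. Without FA replicate 3 the FA minus CD difference was -0.69 (adjusted p = 0.00293) and was called, and FA minus PR turned from 0.19 to -0.13 (adjusted p = 0.738). With only the CD and PR arrays in the fit, PR minus CD was called at the same -0.56 (adjusted p = 0.0126). Over the 19 alternatives the adjusted p ran from 0.0126 to 0.372 for PR minus CD and from 0.00293 to 0.673 for FA minus CD.

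Among the 9 genes, the array-to-array deviations from the group means were only loosely related, with r over 12 arrays from -0.61 for Calb1 and Calb2 to 0.66 for Pvalb and Reln. Reln and Nos1 had r = -0.56 and Pvalb and Sst r = 0.58. The genes most like each member were Vps13a for Pvalb (r = 0.96), Zfp563 (0.97) and 4930432O21Rik (0.96) for Calb1, and Rpl18 and 1110007A13Rik for Calb2 (both 0.93). For the peptides they were Syt10 (0.91) and Zfp142 (0.90) for Sst, Ocm (0.92) and Lmtk2 (0.91) for Vip, and Melk (0.92) and AI593442 (0.91) for Cck. Odz2 (0.97) and Ntrk3 (0.95) were most like Reln, and Chka (0.95) and Sema6d (0.94) most like Nos1. They are the highest correlations of all probes searched, over 12 arrays that share slides, and are given as a description.

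The lists that follow give how many genes were called, which can be read beside the shares called over all probes, 16.6% lower and 13.4% higher for PR minus CD and 18% lower and 16.4% higher for FA minus CD. A list carries no test of its own. Each list gene is read from its brightest probe. For genes with several probes, such as Dab1 with 4, the others were not read and may differ. For FA minus PR, 0 genes of any list were called by limma.

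The genes for making and moving GABA itself form a list of 5, among them the synthetic enzymes Gad1 and Gad2, the vesicular transporter Slc32a1 and the degrading enzyme Abat. For PR minus CD 2 were higher and 0 lower, and for FA minus CD 1 was higher and 0 lower; at a median of -0.09 in both, the rest lay slightly on the other side. Gad1 read 14.23, 14.23, 14.37 and 14.19 in CD, 14.55, 14.44, 14.44 and 14.53 in PR, and 14.48, 14.50, 14.53 and 14.50 in FA, with every PR and FA array above every CD array. Gad1 rose by 0.23 in PR (adjusted p = 0.0047) and by 0.25 in FA (adjusted p = 0.00262). Under 75th percentile scaling the PR call of Gad1 was lost. The summed intensity of the list (divided by 1000) was 153 to 167 on the CD arrays, 153 to 158 on PR and 153 to 158 on FA.

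Of 18 transcription factors of interneuron development, 5 were lower and 2 higher in PR, and 4 lower and 2 higher in FA, with medians of -0.09 and -0.08. Sox6, which acts after Lhx6 in cells of the medial ganglionic eminence, was higher in PR (0.71, adjusted p = 0.0253) and in FA (0.64, adjusted p = 0.035), with all 8 arrays above all CD arrays. Sp8 was lower in both (-0.53, adjusted p = 0.0434, and -0.50, adjusted p = 0.0482), and Nkx2-1 (-0.48, adjusted p = 0.0231) and Dlx2 (-0.40, adjusted p = 0.0282), which act before Lhx6, were lower in PR. Prox1, a factor of interneurons from the caudal ganglionic eminence, was higher in PR (0.27, adjusted p = 0.0162). In FA, Maf (-0.30, adjusted p = 0.0192) and Npas3 (-0.20, adjusted p = 0.0415) were lower and Nr2f1 (0.25, adjusted p = 0.0164) higher. Each fit that left out 1 array of a comparison was run, 8 in all, and the call of Sp8 was lost in 8 of them in PR (adjusted p up to 0.0945) and 6 in FA (up to 0.123), that of Sox6 in 3 (up to 0.0608) and 6 (up to 0.0789), Nkx2-1 in 4 (up to 0.0596), Dlx2 in 5 (up to 0.0733), Npas3 in 6 (up to 0.106) and Maf in 1 (0.0531). Prox1 and Nr2f1 were called in all 8.

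The list of 21 other interneuron subtype genes held 4 higher and 0 lower for PR, and 4 higher and 1 lower for FA, with medians of 0.03 and 0.06; 19 of its genes were well above background on all arrays. Cxcl14, a chemokine of interneurons from the caudal ganglionic eminence, rose by 0.31 in PR (adjusted p = 0.00197) and 0.27 in FA (adjusted p = 0.00381). Lamp5, a membrane protein of neurogliaform cells, rose by 0.30 (adjusted p = 0.0029) and 0.38 (adjusted p = 0.000632), and Crhbp, which binds corticotropin-releasing hormone and is found in many somatostatin cells, by 0.27 (adjusted p = 0.0109) and 0.47 (adjusted p = 0.000422). Tac2, the neurokinin B precursor, fell by 0.21 in FA (adjusted p = 0.00748). These calls were kept in all fits that left out 1 array. In each of these differences the 4 arrays lay wholly beyond the CD arrays, except for Crhbp in PR, where the lowest PR and the highest CD array were equal at 9.94. Cnr1, the cannabinoid receptor of cholecystokinin basket cells, differed by 0.03 and 0.06, not called.

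Of 13 genes of fast-spiking cells and of the perineuronal net, the matrix that wraps parvalbumin cells, 2 were lower and 2 higher in PR, and 3 lower and 2 higher in FA, with a median of -0.05 in both. The matrix proteoglycans Ncan and Acan were lower in both groups, Ncan by -0.27 (adjusted p = 0.0026) in PR and -0.27 (adjusted p = 0.0024) in FA, and Acan by -0.25 (adjusted p = 0.0116) and -0.34 (adjusted p = 0.0018). Tnr, which cross-links the net, was lower in FA (-0.40, adjusted p = 0.0115), and Hapln4, a link protein, was higher in both (0.36, adjusted p = 0.0151, and 0.46, adjusted p = 0.0038). For Ncan, Acan and Tnr the FA arrays lay below all CD arrays. Kcnc2, a Kv3 channel subunit that lets parvalbumin cells fire fast, had group means of 10.16 ± 0.09 (SD, n = 4) in CD, 11.50 ± 0.12 in PR and 11.40 ± 0.04 in FA, and the differences of 1.34 (adjusted p = 2.6e-05) and 1.24 (adjusted p = 2.01e-05) by limma exceed those of all 13 marker probes, with every PR and FA array above every CD array. Its paralog Kcnc1 differed by -0.05 in both, not called.

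The receptors for the 3 peptides gave 1 higher and 0 lower of 10 genes in each comparison with CD, with medians of 0.04 and 0.06. Sstr2, a somatostatin receptor, was higher in PR (0.30, adjusted p = 0.0398), a call lost in 6 of the 8 fits that left out 1 array (0.24 to 0.37, adjusted p up to 0.101), and Cckbr, the main cholecystokinin receptor of the brain, was higher in FA (0.25, adjusted p = 0.0176), with all 4 FA arrays above all CD arrays. Vipr2, a receptor for VIP, differed by 0.08 in PR and 0.21 in FA, not called (adjusted p = 0.58 and 0.139).

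Of 8 receptors and signal partners of reelin, 1 was lower and 2 were higher in PR, and 1 lower and 3 higher in FA, with medians of 0.12 and 0.04. Lrp8, a reelin receptor, was lower in both groups (-0.24, adjusted p = 0.0236, and -0.29, adjusted p = 0.00804), and the other receptor, Vldlr, differed by -0.17 and -0.19, not called. The kinase Fyn, which phosphorylates the adaptor Dab1, rose by 0.41 (adjusted p = 0.000887) and 0.44 (adjusted p = 0.000452), the adaptor Crk by 0.32 (adjusted p = 0.00088) and 0.19 (adjusted p = 0.0117), and Dab1 by 0.16 in FA (adjusted p = 0.0335). The Lrp8 call in PR was lost in 5 of 8 fits without 1 array (adjusted p up to 0.0618), and that of Dab1 in 5 of 8 (up to 0.0862). Under 75th percentile scaling the FA calls of Crk and Dab1 were lost.

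Of 6 partners of neuronal nitric oxide synthase and subunits of the guanylate cyclase that senses nitric oxide, 3 were lower and 0 higher in PR, and 3 lower and 1 higher in FA, with medians of -0.09 and -0.10. The cyclase subunit Gucy1a2 was lower by -0.54 (adjusted p = 0.0124) in PR and -0.57 (adjusted p = 0.00798) in FA, and all PR and FA arrays were below all CD arrays. The scaffold Dlg4, which ties the enzyme to glutamate receptors, was lower by -0.22 (adjusted p = 0.0499) and -0.37 (adjusted p = 0.00418), and Gucy1a1 by -0.18 (adjusted p = 0.0456) and -0.17 (adjusted p = 0.0482). Dynll1, a dynein light chain that binds the enzyme, was higher in FA (0.27, adjusted p = 0.0187). In the fits without 1 array the PR call of Dlg4 was lost in 8 of 8 (adjusted p up to 0.123), that of Gucy1a1 in 8 of 8 in PR (up to 0.111) and 7 of 8 in FA (up to 0.123), and that of Dynll1 in 1 (0.0516).

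Other cells that carry the same 9 transcripts were followed through their own markers, as the summed intensity (divided by 1000) over the brightest probe of each gene of a list. Bright probes weigh most in such a sum, so the gene whose probe weighs most is named, which says nothing of its amount of RNA relative to the others. Purkinje cell markers, which bear on Pvalb and Calb1, summed to 151, 160, 167 and 175 in CD, 159, 165, 162 and 169 in PR, and 158, 158, 139 and 156 in FA. The lowest sum was on FA replicate 3, the FA array on which Calb1 was lowest. Of the 8 genes 0 were lower and 1 higher in PR, and 2 lower and 1 higher in FA, with medians of -0.09 and -0.12. Pcp2 was lower in FA (-0.25, adjusted p = 0.0215), as was Slc1a6 (-0.18, adjusted p = 0.0455), while Homer3 was higher in both (0.47, adjusted p = 0.00104, and 0.48, adjusted p = 0.000814). Pcp4 weighed most in the sum, and all 8 were well above background on all arrays. The Pcp2 call was lost without FA replicate 2 or FA replicate 3 (adjusted p up to 0.0595), and that of Slc1a6 in 6 of 8 fits (up to 0.114). The part of Purkinje cells in the Pvalb and Calb1 results was not tested.

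Cerebellar granule cell markers, which bear on Calb2, Reln and Nos1, summed to 58.6, 56.1, 55.7 and 51.4 in CD, 53.3, 53.9, 49.7 and 50.4 in PR, and 49.1, 49.3, 42.7 and 49.7 in FA. All FA arrays were below all CD arrays, and FA replicate 3, the lowest, was also the FA array with the lowest Reln and the highest Nos1. Of 8 genes 3 were higher and 0 lower in PR, and 1 higher and 2 lower in FA, with medians of 0.10 and 0.03. Cbln3 was higher in both groups (0.43, adjusted p = 0.0042, and 0.47, adjusted p = 0.00203), Grm4 (0.43, adjusted p = 0.0262) and Neurod1 (0.30, adjusted p = 0.0406) were higher in PR, and Fat2 (-0.61, adjusted p = 0.0155) and Zic1 (-0.35, adjusted p = 0.00511), which weighed most in the sum, were lower in FA. The Grm4 call was lost in 3 of 8 fits without 1 array (adjusted p up to 0.0699) and that of Neurod1 in 5 of 8 (up to 0.0991). All 8 genes were well above background on all arrays, and the part of granule cells in the Calb2, Reln and Nos1 results was not tested.

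Markers of the olfactory bulb, whose inner cells carry calretinin, summed to 13.6, 14.6, 13.6 and 13.6 in CD, 12.7, 10.1, 11.2 and 11.5 in PR, and 10.1, 12.8, 15.1 and 7.92 in FA. The PR sums were below all CD sums, and the FA sums were spread widely around both. Of 6 genes 2 were lower in each comparison and 0 higher, with medians of -0.35 and -0.34. Eomes fell by 0.66 in PR (adjusted p = 0.0187) and by 1.02 in FA (adjusted p = 0.00168), and Trh by 0.44 (adjusted p = 0.0317) and 0.42 (adjusted p = 0.032). Th, the tyrosine hydroxylase, weighed most in the sum and differed by -0.25 and -0.27, not called. The PR call of Eomes was lost in 2 of 8 fits without 1 array (adjusted p up to 0.0519), and the Trh calls in 6 in PR (up to 0.0774) and 5 in FA (up to 0.083). Sp8, which bulb interneurons also carry, read 9.53, 10.20, 10.08 and 9.28 on the FA arrays, highest on FA replicates 2 and 3 like the sum of the bulb markers. Dlx2 read 9.64, 10.09, 9.94 and 9.49 on these arrays, also highest on FA replicates 2 and 3. The part of the olfactory bulb in the Calb2, Sp8 and Dlx2 results was not tested.

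Striatal projection neuron markers, which bear on Calb1, summed to 102, 101, 109 and 104 in CD, 116, 114, 121 and 121 in PR, and 116, 120, 116 and 126 in FA. All PR and FA sums were above all CD sums, whereas Calb1 was lower there. Of 8 genes 4 were higher and 0 lower in each comparison, with medians of 0.18 and 0.20, and Penk weighed most in the sum. Rgs9 rose by 0.25 (adjusted p = 0.00414) and 0.36 (adjusted p = 0.000445), Penk by 0.19 in PR (adjusted p = 0.0489) and Ppp1r1b by 0.21 in FA (adjusted p = 0.012). The Penk call was lost in 6 of 8 fits without 1 array (adjusted p up to 0.121) and, like that of Ppp1r1b in FA, under 75th percentile scaling. The part of striatal cells in the Calb1 result was not tested.

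Hypothalamic neuropeptides, which bear on Sst and Vip, summed to 28.9, 26.7, 28.4 and 31 in CD, 22.9, 22.2, 20.7 and 20.7 in PR, and 23.7, 14.6, 28 and 20.2 in FA. The PR sums were below all CD sums, while Sst was higher on these arrays. Of 7 genes 1 was lower in PR and 2 in FA, 0 higher in either, with medians of -0.52 and -0.45, and Oxt weighed most in the sum. Pmch fell by 0.59 in PR (adjusted p = 0.000633) and by 0.43 in FA (adjusted p = 0.00306), and Gal by 0.45 in FA (adjusted p = 0.0438), a call lost in 7 of 8 fits without 1 array (adjusted p up to 0.0895). Of 7 pituitary markers, of which 3 were well above background on all arrays, 2 were lower in each comparison. They were Gh and Prl, both well above background on all 4 CD arrays, 0 PR arrays and 1 FA array. The mean of Gh was 7.94 in CD, 2.61 in PR and 3.32 in FA, and that of Prl 7.90, 3.35 and 3.66. The pituitary sums were 17.7, 23.1, 19.6 and 22.4 in CD, 18.9, 13.9, 15 and 25.3 in PR, and 18.8, 16.2, 18.7 and 18.7 in FA, where Pou1f1 weighed most. With a mean of 14.17 in CD the Pou1f1 probe far outweighed Gh and Prl, so these sums say little of Gh and Prl. On FA replicate 4, where Gh read 6.16, Sst read 14.65, the highest of the FA group. Nkx2-1 read 6.29, 5.69, 6.45 and 6.22 on the FA arrays. It was highest on FA replicate 3 and lowest on FA replicate 2, like the sum of the hypothalamic neuropeptides. The part of hypothalamus and pituitary in the Sst, Vip and Nkx2-1 results was not tested.

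Forebrain glutamatergic markers, which bear on Cck, summed to 39.8, 40.6, 36.4 and 34.4 in CD, 36.9, 34.5, 34.3 and 33.3 in PR, and 34, 38.2, 31 and 38.1 in FA, in overlapping ranges. Of 7 genes 2 were higher and 1 lower in each comparison, with medians of 0.02 and 0.14, and Neurod2 weighed most in the sum. Neurod6 was higher in both (0.19, adjusted p = 0.039, and 0.44, adjusted p = 0.000399), Emx1 was higher in FA (0.26, adjusted p = 0.0302), and Camk2a was lower in both (-0.44, adjusted p = 0.0295, and -0.42, adjusted p = 0.0303). Apart from Neurod6 in FA, these calls were lost in 4 to 7 of 8 fits without 1 array, with adjusted p up to 0.0948. Their part in the Cck values was not tested.

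Of 8 glial markers 2 were higher and 2 lower in each comparison, with medians of 0.01 and -0.04, and sums of 227 to 258 in CD, 230 to 267 in PR and 251 to 264 in FA. Gfap (0.43, adjusted p = 0.000992, and 0.32, adjusted p = 0.00446) and Mog (0.29, adjusted p = 0.0257, and 0.34, adjusted p = 0.0104) were higher, and Aif1 (-0.37, adjusted p = 0.00957, and -0.28, adjusted p = 0.0313) and Aqp4 (-0.21, adjusted p = 0.0358, and -0.35, adjusted p = 0.00256) lower. Of 6 general neuron markers 1 was lower and 1 higher in PR and 0 lower and 1 higher in FA, with medians of -0.06 in both, sums of 241 to 281, 255 to 261 and 245 to 273, and Syt1 weighing most in the sum. Nefl was higher in both (0.19, adjusted p = 0.0305, and 0.17, adjusted p = 0.0377), and Snap25 was lower in PR (-0.15, adjusted p = 0.0319), by a probe that itself holds a CA run of 20 bases. The calls of Aqp4 in PR, Mog in PR, Aif1 in FA, Nefl in both and Snap25 were lost in 3 to 6 of 8 fits without 1 array, with adjusted p up to 0.0991.

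The promoters of the peptide genes were read because Sst, Vip and Cck are classic targets of CREB, a factor that binds the cyclic AMP response element TGACGTCA or its shorter form TGACG. Sequences of 300 bases, 250 before and 50 after each transcript start, came from RefSeq (build GRCm38.p6) and were at hand for 7 of the 9 genes, as 10 promoters; Calb1 and Calb2 are named only. Both strands were searched, and each full element also contains the shorter form on both strands. The full element was in 588 of 32851 promoters of the genome (1.79%) and in the Sst promoter, and the shorter form was in 6837 (20.8%) and in those of Sst, Vip, Cck and Nos1. The windows of 60 bases around each match are shown so that the element of each gene can be read, with the match in capitals as it reads on the strand of the gene. The matches lie at -48 to -41 for Sst (chr16:23890859-23890918, minus strand), -79 to -75 for Vip (chr10:5639113-5639172, plus strand), -47 to -43 for Cck (chr9:121495708-121495767, minus strand) and -130 to -126 for Nos1 (chr5:117866683-117866742, plus strand), counted from the transcript start.
Sst: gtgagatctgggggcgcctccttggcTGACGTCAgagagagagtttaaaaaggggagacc
Vip: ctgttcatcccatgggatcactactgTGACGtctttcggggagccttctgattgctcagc
Cck: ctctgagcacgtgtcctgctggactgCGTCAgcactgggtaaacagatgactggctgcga
Nos1: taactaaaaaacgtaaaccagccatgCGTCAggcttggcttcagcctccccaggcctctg

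A match describes the letters of a promoter and says nothing of binding or of how the gene moved.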

How the data were processed

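RNA of 12 brains, 4 per diet, was labelled with Cy3 by the authors and hybridized to Agilent 4x44K arrays, and the authors quantified the spots with Feature Extraction 11.0.1.1. The intensity values used for all main results are the matrix deposited by the authors, which holds linear intensity after qspline normalization between arrays, with one value for each probe. The spot intensities of the same arrays, deposited per the file headers with background and spatial trend corrected within the array only, served the alternatives, and each column of the matrix ranked its probes like its own array (Spearman r of 0.999977 or more). Methylation samples of the study were not analysed here.

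The matrix was taken to log2, and limma 3.58.1 in R 4.3.3 fitted the 3 groups together, with each diet pair as a comparison and Benjamini-Hochberg adjustment over 39429 probes. Tables were made with data.table (version 1.17.8), Python 3.11.15, numpy 2.4.6 and pandas 2.3.3, and plots with matplotlib 3.10.9. The members and the lists were chosen with earlier results of these data known. Of the 16 lists, with 146 genes matched by current or earlier symbol, all genes were measured. From each list and comparison, up to 3 genes called higher and 3 called lower were named, by size, among those well above background on all 12 arrays. Deviations from the group means over 12 arrays gave every correlation between genes, with no p.

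Alternatives were 75th percentile scaling and quantile normalization of the scanner signal, normexp correction with offset 50, removal of outlier spots or dim probes, the replicate number as a factor, a trend and robust variance model, only the 2 groups compared, the Tukey test and the limits of the study's methods, the mean of a gene's probes, and each array left out. Leaving out probes with CA or GT runs of 20 bases or more was added after seeing the data. A group was searched for 1 array far from the others with Dixon's ratio (critical value 0.829).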

Additional observations from a re-analysis of the deposited data

Results flagged for a closer look

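Dixon's ratio, the gap between the extreme array and its neighbour over the range of a group, was taken for each of the 13 probes in each of the 3 groups. It passed the critical value in 1 of 39 groups, where chance alone passes it in about 1 group of 20: probe 3 of Lhx6 in CD, with a ratio of 0.988, where CD replicate 1 read 6.35 and the other CD arrays 2.24, 2.24 and 2.20. Without that array PR minus CD was 1.05 (adjusted p = 0.0411, limma) instead of 0.02, among values that are mostly not well above background. The Nos1 probe in FA, with FA replicate 3 at 8.46, lay just under the critical value before rounding. All arrays were kept, and the cause was not tested.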

How the results depend on the processing

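Each diet group is 4 arrays on 1 slide, so a difference between groups holds slide and scan as well as diet. Whole brain was measured, so regions and cell types are mixed, and all mice had gone through behavioral tests. Most marker calls lie near the threshold, and no protein or cell count was measured. The cause was not tested for any of the changes given here.

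The 3 marker probes called lower for PR minus CD became 0 under the methods' limits, 2 by the Tukey test, 4 under 75th percentile scaling, 4 with only the 2 groups compared and 2 to 3 when single arrays were left out. The 2 called higher became 1 under 75th percentile scaling, 0 with only the 2 groups compared, 0 by the Tukey test, 0 under the methods' limits and 0 to 2 when single arrays were left out. The 4 called lower for FA minus CD became 1 by the Tukey test, 0 under the methods' limits, 5 under 75th percentile scaling, 3 with only the 2 groups compared and 1 to 4 when single arrays were left out. The 0 called higher became 1 with normexp background correction, 1 with dim probes removed, 1 with the trend and robust variance model, 1 with only the 2 groups compared and 0 to 1 when single arrays were left out. For FA minus PR the count was 0 throughout.

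With the replicate number as a factor (replicate block), 1 marker probe was called higher for PR minus CD instead of 2 and 1 higher for FA minus CD instead of 0, and 3 were called lower for FA minus CD instead of 4. The replicate block ended the calls of Calb2 for PR minus CD (0.27, adjusted p = 0.0605) and of Calb1 probe 1 for FA minus CD (-0.27, adjusted p = 0.0508), and Vip was called for FA minus CD (0.31, adjusted p = 0.0411). Over all probes the replicate block gave 6051 lower and 4935 higher for PR minus CD, 6625 and 6085 for FA minus CD, and 6 and 5 for FA minus PR, where the fit without it gave 6532 and 5288, 7109 and 6449, and 152 and 90. The numbers do not pair the arrays: 5 of 12 arrays correlated best with an array of their own number.

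Over all probes, normexp correction gave 3689 lower and 4663 higher for PR minus CD (44.2% of calls lower, against 55.3%) and 4828 and 6339 for FA minus CD (43.2%, against 52.4%), and dim probes removed gave 3775 and 4708 (44.5%) and 4545 and 5870 (43.6%). The Tukey test gave 4882 and 3472 for PR minus CD, 5488 and 4549 for FA minus CD, and 2 and 6 for FA minus PR. For FA minus PR, 75th percentile scaling gave 116 and 23, dim probes removed 324 and 230, the trend and robust model 266 and 170, and only the 2 groups compared 70 and 31.

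The direction of small differences turned as follows. Cck under 75th percentile scaling was -0.16 (main 0.04) for PR minus CD, -0.15 (main 0.01) for FA minus CD and 0.01 (main -0.03) for FA minus PR. Reln, PR minus CD, was 0.02 under 75th percentile scaling (main -0.03). Lhx6 probe 3, PR minus CD, was -0.36 under 75th percentile scaling and -0.21 with normexp correction (main 0.02). For FA minus PR, Pvalb probe 2 was -0.05 with normexp correction (main 0.02), and Calb1 was -0.03 as the mean of its probes (main 0.04).

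With single arrays left out, the range was -0.04 to 0.11 for Vip, -0.33 to 1.05 for Lhx6 probe 3 and -0.06 to 0.02 for Reln (PR minus CD). For FA minus CD it was -0.03 to 0.04 for Cck and -0.65 to 0.74 for Lhx6 probe 3. For FA minus PR it was -0.09 to 0.02 for Pvalb probe 1, -0.00 to 0.03 for Pvalb probe 2, -0.07 to 0.00 for Cck, -0.02 to 0.11 for Calb1 probe 1, -0.04 to 0.14 for Lhx6 probe 2 and -0.13 to 0.33 for Nos1.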
